A study of Homo sapiens with 6 samples.

Results

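The genes described here are 51 nucleolar genes that make and assemble ribosomes and are widely used as MYC target genes. They were found by symbol among the 28008 genes of the count table from docetaxel-resistant prostate cancer cells, and all 51 were present and passed the filter on low counts, which left 14292 genes for testing. The cells were DU-145-DR/tet-MUC1shRNA, a derivative of the human prostate cancer line DU-145 that was selected for growth in docetaxel (DTX) and that carries a short hairpin RNA (shRNA) against MUC1 under a doxycycline-inducible (tet) promoter. In 3 libraries the cells had received the DMSO vehicle (DOX-negative) and in 3 libraries 500 ng/ml doxycycline (DOX-positive). Each group came from triplicate cultures of one resistant line, so p-values measure the spread between these cultures. In the sample labels the hairpin is named with doxycycline and the DTX resistance with vehicle. The column headers carry the same tet mark in both groups without naming the hairpin. That both groups carry the hairpin is taken from the study. The headers spell the line DU145TR where the sample titles have DU145DR, and columns were matched to samples by doxycycline state and replicate number. No library with a control hairpin and doxycycline was analysed here, so the drug and MUC1 silencing cannot be told apart.

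A ribosome starts in the nucleolus, where RNA polymerase I copies the ribosomal DNA into one long precursor RNA. Small nucleolar RNAs (snoRNAs) in box C/D and box H/ACA particles guide the chemical marking of this precursor. A small-subunit processome then folds and cuts the part that becomes the 40S subunit, while a separate chain of helicases, GTPases and scaffold proteins builds the 60S subunit. The transcription factor MYC, with its partner MAX, binds E-box DNA (CACGTG) near the start of many of these genes, and their transcription is a classic readout of MYC activity in growing cells.

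The E-box was looked for in the RefSeq promoter window of each gene, which spans 250 bases before to 50 bases after the transcription start on GRCh38.p14. An entry was matched for 44 of the 51 genes, and 16 of these 44 (36.4%) held CACGTG, which reads the same on both strands. The motif stood in 10.1% of the 10483 matched windows of genes tested and in 7.43% of all 27305 windows in the table. A related form, CACGCG or its reverse complement CGCGTG, was found in 17 of the 44 windows (38.6%), in 18.3% of the windows of genes tested and in 11.4% of all windows. A match describes the letters of a window and does not show that MYC bound there. The following sites are shown because their genes turn up in the results below: MYBBP1A is the one gene with a CACGTG match that fell, NOP10 is among the most abundant of the genes per length, and FBL, NAT10, UTP20, PES1, NOL6 and WDR43 stand for the modification and assembly machinery. The motif is in capitals and each site is written in the direction of its gene.
MYBBP1A, chr17:4555340-4555369, minus strand, after the start: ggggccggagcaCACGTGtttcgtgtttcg
NOP10, chr15:34343130-34343159, minus strand, before the start: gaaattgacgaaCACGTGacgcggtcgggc
FBL, chr19:39846356-39846385, minus strand, after the start: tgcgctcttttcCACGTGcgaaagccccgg
NAT10, chr11:34105602-34105631, plus strand, before the start: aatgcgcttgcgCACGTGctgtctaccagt
UTP20, chr12:101280083-101280112, plus strand, before the start: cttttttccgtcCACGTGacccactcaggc
PES1, chr22:30591880-30591909, minus strand, after the start: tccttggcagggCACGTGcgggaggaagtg
NOL6, chr9:33473894-33473923, minus strand, after the start: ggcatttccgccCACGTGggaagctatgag
WDR43, chr2:28894658-28894687, plus strand, after the start: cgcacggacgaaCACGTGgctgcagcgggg

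Library totals lay between 15092691 and 23243713 counts, at which 3 counts correspond to between 0.129 and 0.199 CPM, the read count scaled to library size. Of the markers of the line, KRT8, KRT18, EPCAM, CDH1 and VIM were expressed and the first 4 of these were called higher in DOX-positive cells, whereas KLK3 and TMPRSS2, markers of luminal prostate cells, did not exceed 3 counts in any library. The 9 markers of other cell types summed to 96.0 to 112 CPM with vehicle and to 164 to 186 CPM with doxycycline. The rise came through CD68, a lysosomal protein abundant in macrophages, which rose by 0.75 on the log2 scale. Of the 9 markers, 3 passed the filter on low counts. COL1A1 had 66 to 96 counts in each library and was not called (log2 fold change 0.093, edgeR adjusted p 0.771). PTPRC, LUM and CD3E did not exceed 3 counts, and the part of these markers in the results was not tested. MUC1, the silenced gene, was counted 387, 484 and 396 times with vehicle and 75, 74 and 66 times with doxycycline. The groups did not overlap, and MUC1 fell by 2.52 on the log2 scale (edgeR adjusted p 4.47e-11, SE 0.146).

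MYC transcripts rose. MYC stood at 124.6, 123.9 and 114.6 CPM in DOX-negative replicates 1 to 3 and at 197.9, 166.9 and 200.5 CPM in DOX-positive replicates 1 to 3. All DOX-positive values lay above all DOX-negative values. The log2 fold change was 0.64 (edgeR adjusted p 1.02e-06, SE 0.0732), a rise of 55.7% with a 95% interval of 0.49 to 0.79 on the log2 scale. In the deposited TPM, where 5 short noncoding RNAs take a varying share of each library, MYC changed by 0.23 on the log2(TPM + 1) scale and was not called (limma adjusted p 0.570), while the median of all genes was -0.32. These values are for RNA, and MYC protein was not measured in these libraries. By immunoblot, the study reported that silencing MUC1-C with doxycycline in these cells suppressed MYC in lysates and in chromatin. From RNA-seq it also reported an association of MUC1-C with a HALLMARK signature of MYC targets. The question put to the 51 genes was whether their transcripts changed along with the rise of MYC transcripts.

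None of the 51 genes was called higher in DOX-positive cells by edgeR at an adjusted p under 0.05, against 13.0% of all genes tested, and 1 of them, WDR74, had a rise with an unadjusted p under 0.05. DESeq2 also called 0 of them higher. Lower calls were made for 6 of the 51 genes, namely TCOF1, TSR1, LYAR, MYBBP1A, DDX56 and HEATR1, against a background of 13.7% of all genes tested. The share of lower calls among the nucleolar genes was therefore close to that of genes at large, and 45 of the 51 were not called in either direction, while 26.7% of all genes were. Called genes were more frequent at higher read counts: among the 11133 genes with an average CPM no lower than that of the lowest of the 51, 30.9% were called in either direction and 15.6% were called lower.

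The changes were small and mostly on the negative side of 0. The log2 fold changes ran from -0.41 to 0.19 with a median of -0.050 and an interquartile range of -0.13 to -0.0036. Negative values were found in 39 of the 51 genes, and in 7220 of all 14292 genes tested. Some of the signs changed when a single library was left out, with ranges given in the last section. The median of the 51 was below 0 under each scaling tried, from -0.046 with DESeq2 to -0.086 with total counts. It was -0.43 in the deposited TPM, in which no gene of the set passed. The median of all genes moved with the scaling too, to 0.0012, -0.038 and -0.32 in the same order. The median of the 51 minus that of all genes was -0.047, -0.048 and -0.11. In the main edgeR fit, the median over all genes tested was -0.0034 and the interquartile range -0.20 to 0.19. The median absolute log2 fold change was 0.084 for the 51 genes and 0.191 for all genes. The fold lay within 10% of 1 for 40 of the 51. In 11 genes all DOX-positive libraries lay below all DOX-negative ones, and in 1 gene they all lay above, against 20.2% and 19.5% of all genes (39.8% in either direction). None of the 51 was both called and changed by 0.5 or more on the log2 scale, which 9.73% of all genes were, 5.51% lower and 4.21% higher. The median of the 51 moved with single libraries: leaving out DOX-positive replicate 2 gave -0.017, leaving out DOX-positive replicate 3 or 1 gave -0.092 and -0.089, and leaving out DOX-negative replicate 1 gave -0.085.

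**Figure D1:**
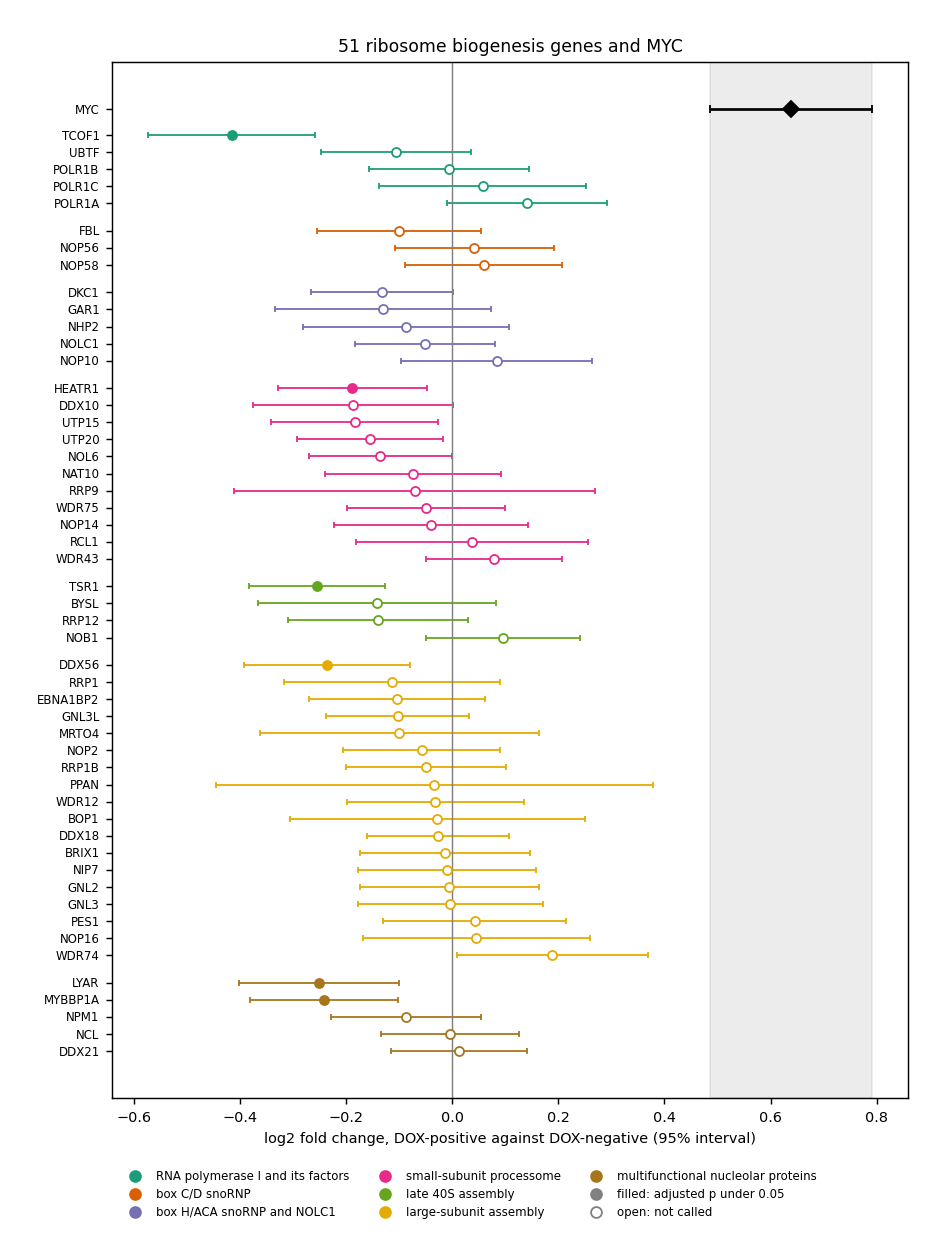
Log2 fold change of MYC and of each of the 51 ribosome biogenesis genes, DOX-positive against DOX-negative, with its 95% interval on the horizontal axis, grouped and coloured by role. Filled points passed an edgeR adjusted p of 0.05 and the grey band is the interval of MYC, from 0.49 to 0.79; no other interval reaches it, the highest upper end being 0.38.

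The intervals show how large a rise these libraries still allow. The 95% intervals of all 51 genes ended below the lower end of the MYC interval, and the highest upper end was 0.38, that of PPAN, the least abundant of the set. Intervals extended 0.157 on the log2 scale to each side of the estimate at the median, and 50 of 51 lay wholly between -0.5 and 0.5. They held 0 in 41 genes, lay wholly below 0 in 9 and wholly above 0 in 1. An interval clear of 0 amounts to an unadjusted p under 0.05, which 10 of the 51 genes had. Over all genes tested, 26.7% passed the stricter adjusted p under 0.05 in either direction. No member exceeded the log2 fold change of MYC, which 4.21% of all genes tested did. The ratio of each gene to MYC was lower in every DOX-positive than in every DOX-negative library for 51 of the 51 genes, but the same held for 77.4% of all genes tested.

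Summed over the 51 genes, the level was 6066, 6192 and 6545 CPM in the DOX-negative libraries and 5982, 5930 and 6134 CPM in the DOX-positive libraries. The means were 6267 ± 249 and 6015 ± 106 CPM (SD, n = 3 each), and the ranges overlapped, since DOX-positive replicate 3 lay above DOX-negative replicate 1. The genes took 0.634% and 0.594% of all counts. MYC, set against this sum, stood at 20.5, 20.0 and 17.5 CPM per 1000 CPM of the 51 genes in the DOX-negative libraries and at 33.1, 28.1 and 32.7 in the DOX-positive libraries, with no overlap. Because these are bulk RNA libraries, fewer cells of a kind and less RNA per cell cannot be told apart.

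**Figure D2:**
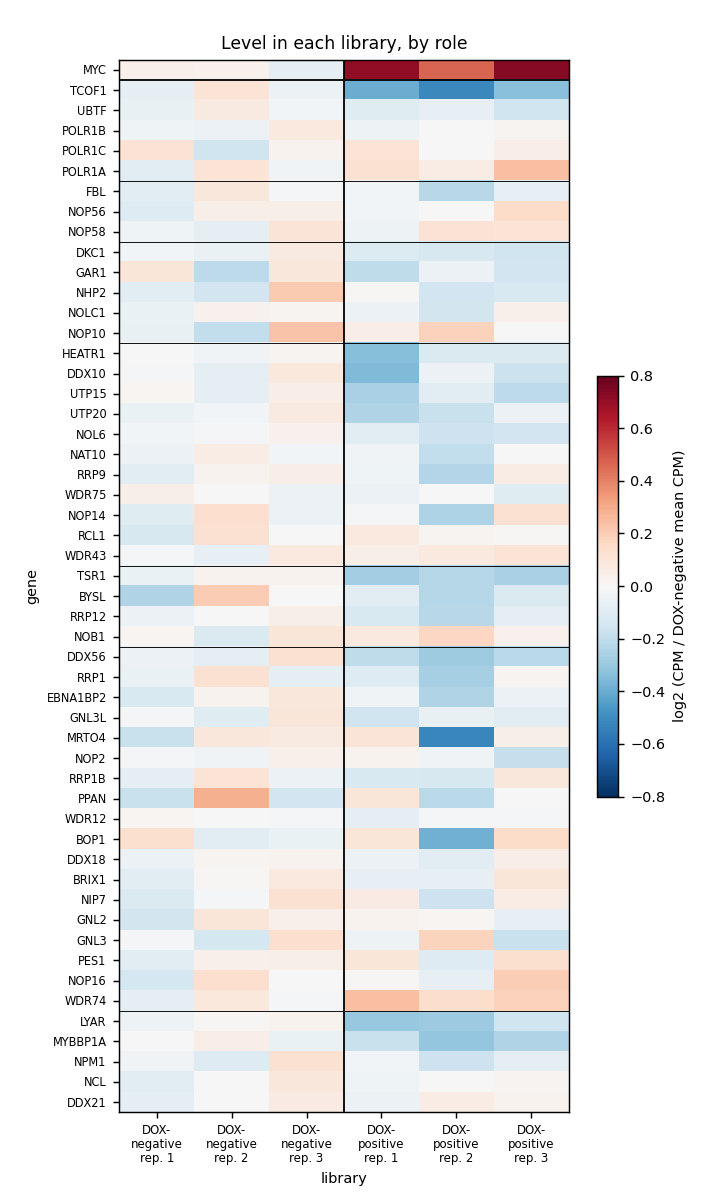
Log2 ratio of the CPM in each of the 6 libraries to the mean of the 3 DOX-negative libraries, one row per gene, with MYC at the top and the 51 genes in blocks by role. Red is higher and blue lower; MYC is red in all DOX-positive columns, TCOF1 is blue in all of them, and most other rows stay pale, with DOX-positive replicate 2 darkest blue for MRTO4 and BOP1.

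The RNA polymerase I group holds 5 genes, of which TCOF1 fell. TCOF1 encodes treacle, which holds the polymerase machinery at the ribosomal DNA and is mutated in Treacher Collins syndrome. Its level was 87.5, 99.2 and 88.7 CPM in the DOX-negative libraries and 69.9, 64.2 and 72.7 CPM in the DOX-positive libraries. The groups were clearly separated, and the log2 fold change was -0.41 (edgeR adjusted p 0.000295, SE 0.0758), so TCOF1 fell by 25.0%, the largest change among the 51. UBTF, the factor that opens ribosomal DNA for the polymerase, was lower in every DOX-positive library but was not called (log2 fold change -0.11, edgeR adjusted p 0.270). The catalytic subunit POLR1A had a log2 fold change of 0.14 (edgeR adjusted p 0.160, SE 0.0727). POLR1B, the second-largest subunit, and POLR1C, which RNA polymerase III shares, had values of -0.0062 and 0.057.

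The modification particles showed no call. For the box C/D proteins, the ribose methyltransferase FBL had a log2 fold change of -0.10 and the core proteins NOP56 and NOP58 had 0.042 and 0.059, with 95% intervals between -0.26 and 0.21 in all 3. In the box H/ACA group, the pseudouridine synthase DKC1 stood lower in every DOX-positive library, at 137 ± 6.35 against 125 ± 2.31 CPM (SD, n = 3 each), but was not called (log2 fold change -0.13, edgeR adjusted p 0.137). Its partners GAR1 and NHP2 had log2 fold changes of -0.13 and -0.087, and NOLC1, a chaperone of snoRNA particles, had -0.050. NOP10, the smallest protein of the particle, stood at 103, 94.0 and 126 CPM in the DOX-negative libraries and at 112, 122 and 108 CPM in the DOX-positive libraries. These ranges overlapped fully, with a log2 fold change of 0.084 and a 95% interval of -0.096 to 0.26.

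The small-subunit processome had values below 0 in 9 of 11 genes, a median log2 fold change of -0.074 and 1 call. HEATR1, a large scaffold that also supports polymerase I transcription, stood at 193, 189 and 195 CPM in the DOX-negative libraries and at 152, 178 and 177 CPM in the DOX-positive libraries. DOX-positive replicate 1 was the lowest. The log2 fold change of HEATR1 was -0.19 (edgeR adjusted p 0.0444, SE 0.0679), just inside the threshold. This call was lost without DOX-positive replicate 1 (edgeR adjusted p 0.278) and without DOX-negative replicate 1, 2 or 3 (edgeR adjusted p 0.123, 0.0532 and 0.103). UTP15 and NOL6 were also lower in every DOX-positive library without being called, with log2 fold changes of -0.18 and -0.14 (edgeR adjusted p 0.0769 and 0.129). Without DOX-positive replicate 2, UTP15 (edgeR adjusted p 0.0280) and the helicase DDX10 (edgeR adjusted p 0.0386) were called lower. UTP20 had a log2 fold change of -0.15, the rRNA acetyltransferase NAT10 -0.074, RRP9 -0.070, WDR75 -0.050, NOP14 -0.039, RCL1 0.037 and WDR43 0.079.

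Late 40S assembly held 4 genes and 1 call. TSR1, a GTPase-like factor that keeps immature 40S subunits from starting translation, stood at 174, 184 and 184 CPM in the DOX-negative libraries and at 149, 154 and 151 CPM in the DOX-positive libraries. The spread within each group was small, and the log2 fold change was -0.25 (edgeR adjusted p 0.00377, SE 0.0618), so TSR1 fell by 16.2%. BYSL, which encodes bystin, had a log2 fold change of -0.14, and RRP12, a factor for nuclear export of both subunits, had -0.14 and lay lower in every DOX-positive library (edgeR adjusted p 0.221). NOB1, the nuclease that trims the end of the small-subunit RNA, had 0.095.

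Large-subunit assembly is the largest group, with 18 genes, 1 lower call and a median log2 fold change of -0.030. DDX56, an RNA helicase of the pre-60S particle, stood at 77.4, 75.8 and 87.2 CPM in the DOX-negative libraries and at 69.5, 65.7 and 69.0 CPM in the DOX-positive libraries. The groups did not overlap, and its log2 fold change was -0.24 (edgeR adjusted p 0.0229, SE 0.0749). The call was lost without DOX-negative replicate 3 (edgeR adjusted p 0.139), DOX-positive replicate 2 (edgeR adjusted p 0.0521) or DOX-positive replicate 3 (edgeR adjusted p 0.0540). WDR74 was the one gene of the 51 that lay higher in every DOX-positive library, at 31.3 ± 1.70 against 35.7 ± 1.28 CPM (SD, n = 3 each). Its log2 fold change of 0.19 did not pass (edgeR adjusted p 0.111), and its annotated exons hold the small nuclear RNA gene RNU2-2P on the same strand. The 3 proteins of the PeBoW complex, which are needed for maturation of the large-subunit RNA, had log2 fold changes of 0.042 for PES1, -0.028 for BOP1 and -0.031 for WDR12.

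The other large-subunit factors ran from -0.11 for RRP1 to 0.045 for NOP16. Among the nucleolar GTPases, GNL2 had -0.0051, GNL3 (nucleostemin) -0.0036 and GNL3L -0.10. The rRNA cytosine methyltransferase NOP2 had -0.057, the helicase DDX18 -0.026, BRIX1 -0.014, NIP7 -0.0090, RRP1B -0.050, EBNA1BP2 -0.10 and MRTO4 -0.099. MRTO4 and BOP1 were spread by DOX-positive replicate 2, which stood at 20.2 CPM for MRTO4 against 31.2 and 30.1 CPM in the other DOX-positive libraries, and at 11.3 CPM for BOP1 against 15.8 and 16.4 CPM. PPAN had the widest interval, -0.45 to 0.38, at 4.37 ± 0.825 and 4.26 ± 0.460 CPM (SD, n = 3 each). Of its 2583 annotated exon bases, 1447 are shared with the readthrough gene PPAN-P2RY11, which had 0 counts in all 6 libraries, and how shared reads were counted is not given in the sources used here.

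The multifunctional nucleolar proteins split into 2 that fell and 3 that were not called. LYAR, a nucleolar zinc-finger protein that promotes rRNA transcription and processing, stood at 76.6, 79.5 and 80.6 CPM in the DOX-negative libraries and at 64.0, 64.4 and 70.7 CPM in the DOX-positive libraries. Its log2 fold change was -0.25 (edgeR adjusted p 0.0130, SE 0.0726), and the call was lost without DOX-positive replicate 1 (edgeR adjusted p 0.0651). MYBBP1A, a nucleolar protein that binds transcription factors including MYB and p53, stood at 119, 124 and 115 CPM in the DOX-negative libraries and at 105, 96.4 and 101 CPM in the DOX-positive libraries. The groups did not overlap, with a log2 fold change of -0.24 (edgeR adjusted p 0.0102, SE 0.0673). Its E-box site is the first of those printed above.

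The most abundant transcripts of the set were not called. NPM1, the nucleolar chaperone nucleophosmin, stood at 870.4, 824 and 965 CPM in the DOX-negative libraries and at 873, 790.1 and 840.2 CPM in the DOX-positive libraries. These ranges overlapped, and the log2 fold change was -0.088 with a 95% interval of -0.23 to 0.054. GENCODE 29 lists 45 pseudogenes named after NPM1, with which it can share reads. NCL, which encodes nucleolin, stood at 562, 600.0 and 638 CPM in the DOX-negative libraries and at 586, 599.5 and 610.3 CPM in the DOX-positive libraries. Its log2 fold change was -0.0035 with a 95% interval of -0.13 to 0.13. The rRNA helicase DDX21 had 0.013. Per length, in TPM rescaled without 5 short noncoding RNAs, the mean levels were 1359 for NPM1, 1131 for NOP10, 628 for NCL and 263 for FBL, and the lowest were 11.7 for RRP9 and 4.93 for PPAN, around a median of 66.1 over the 51 genes.

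**Figure D3:**
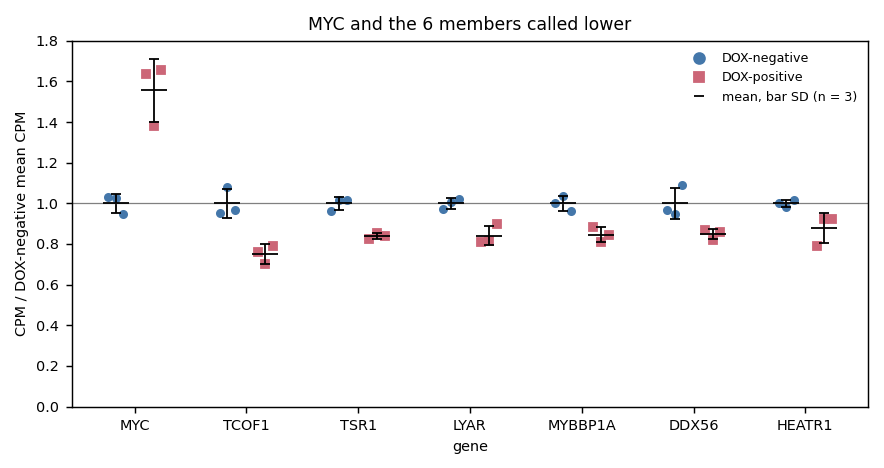
CPM divided by the mean of the DOX-negative libraries for MYC and the 6 ribosome biogenesis genes called lower, from 0 on the vertical axis, with one point per library, a horizontal line at each mean and a bar of 1 SD (n = 3). MYC lies above 1 in all DOX-positive libraries, the 6 genes lie below their DOX-negative points in all of them, and the lowest point of all is TCOF1 in DOX-positive replicate 2.

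The rest of the pathway was taken from a list of 110 further ribosome biogenesis factors, all of which passed the filter. Of these, 15 were called lower, 5 were called higher and 90 were not called, with a median log2 fold change of -0.055. Over all genes tested, 13.7% were called lower and 13.0% higher. By edgeR with each library left out in turn the lower calls numbered between 9, without DOX-negative replicate 1, and 12, and were 10 when DOX-negative replicate 3, DOX-positive replicate 2 or DOX-positive replicate 3 was missing. The higher calls numbered 3 when DOX-negative replicate 1 was missing, likewise 3 for DOX-positive replicate 3, and 8 for DOX-positive replicate 2. Among 17 further polymerase I genes 2 were lower, among 47 small-subunit factors 6 were lower and 4 higher, and among 46 large-subunit factors 7 were lower and 1 higher.

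The largest fall was that of TTF1, the factor that ends and also organises polymerase I transcription, from 23.9 ± 2.17 to 14.3 ± 0.366 CPM (SD, n = 3 each), which is -0.74 on the log2 scale (edgeR adjusted p 1.97e-05, SE 0.107). TTF1 stood at 23.4, 21.9 and 26.2 CPM with vehicle and at 14.7, 14.1 and 14.1 CPM with doxycycline, with no overlap. PNO1, a partner of NOB1 in late 40S assembly, and DDX52, a small-subunit helicase, had log2 fold changes of -0.42 and -0.38 (edgeR adjusted p 0.00178 and 0.000150). Among the rises, SBDS, which frees new 60S subunits for translation and is mutated in Shwachman-Diamond syndrome, went from 89.6 ± 14.4 to 123.9 ± 10.2 CPM (SD, n = 3 each), which is 0.47 on the log2 scale (edgeR adjusted p 0.000508, SE 0.0903). The kinases RIOK2 and RIOK3, which act on maturing 40S subunits, rose by 0.44 and 0.29 on the log2 scale (edgeR adjusted p 0.000536 and 0.00412). None of the 110 had a log2 fold change above that of MYC.

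**Figure D4:**
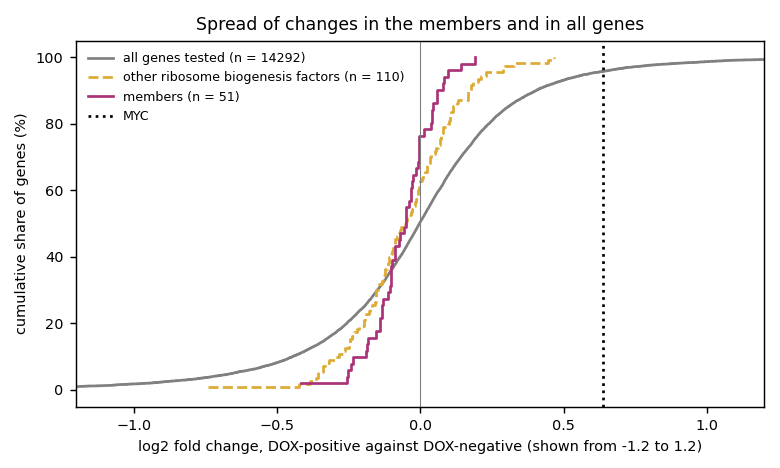
Cumulative share of genes (vertical axis, %) at or below each log2 fold change (horizontal axis, shown from -1.2 to 1.2) for the 51 ribosome biogenesis genes, the 110 further factors and all 14292 genes tested, with the MYC value of 0.64 as a dotted line. The curve of the 51 is the steepest, runs from -0.41 to 0.19 and ends left of MYC.

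Cytosolic ribosomal protein genes, whose products the assembly factors join to rRNA, were close to 0 as well: of 83 tested, 8 were called lower and 2 higher, and the median log2 fold change was -0.042. Outside the nucleolus, 28 of 30 listed MYC targets were tested, with 5 called lower, 2 called higher and a median of -0.057. The shares to set beside both lists are those of all genes tested, 13.7% lower and 13.0% higher. ODC1, the first enzyme of polyamine synthesis, rose from 161 ± 7.91 to 326 ± 29.8 CPM (SD, n = 3 each), or by 1.02 on the log2 scale (edgeR adjusted p 6.04e-10), and IMPDH2, which makes guanine nucleotides, rose by 0.41 on the log2 scale (edgeR adjusted p 0.000115). LDHA, which makes lactate from pyruvate, fell from 766 ± 62.1 to 360 ± 46.2 CPM (SD, n = 3 each), which is -1.09 on the log2 scale (edgeR adjusted p 1.61e-09). TERT, the catalytic subunit of telomerase, had a log2 fold change of -1.16 at a low level, 0.536 ± 0.0639 CPM in DOX-positive cells (SD, n = 3; edgeR adjusted p 0.0294). The other lower calls were the mitochondrial chaperonin gene HSPE1 at -0.53 and the pyrimidine synthesis genes CTPS1 and CAD at -0.37 and -0.24 (edgeR adjusted p 0.00387, 0.000258 and 0.0135). Within the MYC network, 11 of 12 genes were tested and 2 were called, both higher, beside 13.0% higher over all genes tested. These 2 were MYC itself, against which the nucleolar genes were set, and MXD1, which competes with MYC for MAX. MXD1 went from 23.5 ± 2.07 to 48.0 ± 2.88 CPM (SD, n = 3 each), or by 1.03 on the log2 scale (edgeR adjusted p 2.31e-08). These genes are given as values, and their part in the levels of the nucleolar genes was not tested.

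The genes were also described by whether their promoter window held an E-box. Of the 16 with CACGTG, 1 was called lower and the median log2 fold change was -0.072, and of the 28 without it, 4 were called lower and the median was -0.042. Over all genes with a matched window, 15.5% of the 1060 with the motif and 14.1% of the 9423 without it were called lower, and 13.2% and 13.7% were called higher. Another shared feature was the carriage of snoRNA genes inside the gene body, which held for 9 of the 51 genes (17.6%) and for 1.81% of the protein-coding genes tested. These hosts were POLR1C, NOP56, NOP58, DKC1, WDR43, TSR1, GNL3, PPAN and NCL. Their median log2 fold change was -0.0035 with 1 lower call (TSR1), and that of the other 42 genes was -0.072 with 5 lower calls. The shares of lower calls were thus close, at 11.1% of the hosts and 11.9% of the others. Over the protein-coding genes tested, 27 of the 224 hosts (12.05%) and 1826 of the 12171 others were called lower. The median log2 fold changes of these 2 groups were -0.0184 and -0.0073.

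A further sequence is described only, because it was chosen from these same libraries. The heptamer ATCAGTA was picked in an earlier scan of these data for its link with falls. A higher share of lower calls among genes with it follows from that choice, so the shares below cannot support a link. It occurs in the transcripts of 2192 genes tested, of which 27.8% were called lower, against 12.3% of the 10066 genes without it. It occurred in 10 of the 49 nucleolar genes with a transcript that could be searched, with 2 lower calls and a median of -0.14, and the other 39 had 4 lower calls, among them TCOF1 and TSR1, and a median of -0.050. The sites of both called genes are shown with the heptamer in capitals, read from GENCODE 29 transcripts, in the 3′UTR of HEATR1 and before the 3′UTR of MYBBP1A. The part of the heptamer in these changes was not tested.
HEATR1: agaaagtaagtATCAGTAgatttttttca
MYBBP1A: cccagagccccATCAGTAagaagcggaag

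Several of the called genes share exon sequence with a neighbour on the other strand. In GENCODE 29, TSR1 (chr17:2322503-2337507, minus strand, GRCh38) shares 1146 exon bases with SRR, HEATR1 (chr1:236549005-236604504, minus strand) shares 2095 with LGALS8, and MYBBP1A (chr17:4538897-4555631, minus strand) shares 139 with SPNS2. All of these neighbours rose, with log2 fold changes of 0.79 for SRR, 0.51 for LGALS8 and 2.11 for SPNS2, opposite to the genes themselves. The library kit keeps strand, but whether the counting used it is not given in the sources used here, so reads of each pair may not be fully separated. The same limit holds for genes that were not called. Examples are NIP7 (957 exon bases shared with COG8), EBNA1BP2 (668 with CFAP57) and NOP14 (605 with NOP14-AS1). Of these neighbours, NOP14-AS1 rose by 0.45 on the log2 scale (edgeR adjusted p 0.000120). TCOF1 (chr5:150357629-150400308, plus strand), DDX56 (chr7:44565417-44575051, minus strand) and LYAR (chr4:4267701-4290169, minus strand) have no such exon overlap in the annotation.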

How the data were processed

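The comparison used 3 DOX-negative and 3 DOX-positive poly(A)-selected, stranded RNA-seq libraries, grouped and numbered from their titles. The members and lists were chosen with earlier results of these data known. The authors deposited whole-number read counts per gene, aligned with STAR to GRCh38 (hg38) per the submitters' processing notes, which also name DESeq2. The counting step, its strand setting and the annotation are not given in the sources used here. The authors also deposited TPM for 25546 genes, whose sum is equal across libraries. Of these TPM, RN7SL1, RN7SL2, RN7SL3, RN7SK and RPPH1 took 34.4% to 64.4%, so TPM served for levels, after rescaling without these 5 genes, and for alternatives.

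The count test was run with edgeR 4.0.16 in R 4.3.3: filterByExpr, TMM factors (0.986 to 1.03), glmQLFit and two-sided glmQLFTest with group as the only term, and Benjamini-Hochberg adjusted p under 0.05 over all 14292 genes as the call. SE was taken as the size of the log2 fold change over the root of F. CPM used TMM-scaled totals. Values of 3 counts mark the floor, which covers counting error only. Libraries of the same group were not copies of each other (chi-square of 3.76 to 20.2 per degree of freedom). The code was tested on simulated counts.

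Values in every library are printed for MYC, MUC1, the 3 members with the highest TPM and each called member, while the 3 largest called rises and falls of the further factors are named with their fold changes; per-library values of TTF1, MRTO4 and BOP1, and the called MYC targets outside the nucleolus, were added after their values were seen. In the list of further factors POLR1F, POLR1G, POLR1H and UTP25 were matched through older symbols. Alternatives were a replicate block, DESeq2 1.42.0, thinned counts, scaling by total counts or RLE factors, a stricter filter (at least 10 counts per library) or none, limma 3.58.1 on log2(TPM + 1), on log2(TPM + 0.1) and on rescaled TPM, each library left out, and a fold threshold. Promoters came from RefSeq (GRCh38.p14) and gene models from GENCODE 29.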

Additional observations from a re-analysis of the deposited data

How the results depend on the processing

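Among the 51 genes, 0 were called higher under every one of the 16 alternatives that refit or rescale the data, and lower calls numbered between 4 and 8 under all of these except the 2 that used the deposited TPM. The added fold threshold, which is not among the 16, is given below. TCOF1, TSR1 and MYBBP1A were called lower in 14 of 16 alternatives, LYAR in 13, DDX56 in 10 and HEATR1 in 7. MYC was called higher in 14 of 16. With limma on log2(TPM + 1) and log2(TPM + 0.1), the calls over all genes numbered 443 and 408, of which 6.77% and 7.11% were higher against 48.8% for the counts. In these fits 0 and 0 of the 51 genes were lower, further factors were lower in 0 and 1 and higher in 0 and 0 cases, and MYC changed by 0.23 and 0.24 (limma adjusted p 0.570 and 0.576). The deposited TPM moved the median of all genes to -0.32 and -0.39 and that of the 51 genes to -0.43 and -0.44, with 5 short noncoding RNAs taking between 34.4% and 64.4% of a library's TPM. Genes that changed sign there, with both values, were POLR1A -0.23 and -0.25, POLR1C -0.32 and -0.33, NOP56 -0.34 and -0.35, NOP58 -0.33 and -0.33, NOP10 -0.30 and -0.30, WDR43 -0.31 and -0.31, RCL1 -0.33 and -0.35, NOB1 -0.29 and -0.30, NOP16 -0.33 and -0.34, WDR74 -0.20 and -0.20, PES1 -0.34 and -0.35, DDX21 -0.38 and -0.38. With these RNAs removed and TPM rescaled, 5 of the 51 were lower and DDX21 changed sign to -0.011.

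With all 6 libraries in the fit, the other sign changes ended within 0.1 of 0: GNL3 and NCL became 0.000776 and 0.00120 with DESeq2 and 0.000310 and 0.000386 with RLE factors, DDX21 became -0.021 with total counts, and POLR1B and BOP1 became 0.021 and 0.0099 in counts thinned to the smallest total. Requiring an absolute log2 fold change of 0.5 as well left 1390 genes over all and 0 of the 51. HEATR1 lost its call with RLE factors (adjusted p 0.0507) and with rescaled TPM (adjusted p 0.0785), and UTP15 gained one with total counts and with thinned counts (edgeR adjusted p 0.0341 and 0.0488), as UTP20 did with total counts (edgeR adjusted p 0.0319). The causes were not tested.

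Same-numbered libraries did not deviate together (correlations of deviations -0.070, -0.145 and -0.037, with no library closest to its own number), so the numbers were not taken to pair them. With a replicate block, 3158 genes were called, 4 of the 51 and 9 of the further factors were lower, and HEATR1 and DDX56 were not called (edgeR adjusted p 0.0850 and 0.0525).

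With each library left out in turn, calls ranged from 2784 to 3645 over all genes and from 4 to 7 lower among the 51, and among further factors from 9 to 12 lower and 3 to 8 higher. Log2 fold changes ranged from 0.59 to 0.72 for MYC and from -2.62 to -2.41 for MUC1. The 22 genes whose sign changed in at least 1 of these fits had ranges of POLR1B -0.028 to 0.034, POLR1C -0.015 to 0.12, NOP56 -0.010 to 0.073, NHP2 -0.16 to 0.034, NOP10 -0.0040 to 0.21, NOP14 -0.12 to 0.054, RRP9 -0.13 to 0.0048, RCL1 -0.021 to 0.10, NOP2 -0.10 to 0.000346, NOP16 -0.029 to 0.12, RRP1B -0.12 to 0.010, BOP1 -0.12 to 0.12, PES1 -0.00072 to 0.11, BRIX1 -0.067 to 0.028, GNL2 -0.073 to 0.048, GNL3 -0.10 to 0.073, DDX18 -0.066 to 0.000944, PPAN -0.11 to 0.13, NIP7 -0.064 to 0.063, MRTO4 -0.22 to 0.075, NCL -0.048 to 0.043, DDX21 -0.021 to 0.050.

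With 3 libraries a group, a change smaller than about 0.157 on the log2 scale, the median distance from estimate to interval end, was within the interval for a typical gene of the set.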
